A study of Mus musculus with 8 samples.

Results

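The comparison set PML KD embryonic stem cells (ESCs) against WT ESCs at day 0, before differentiation, in 2 arrays per group. Arrays were chosen by their titles: every array titled as PML KD ESC at day 0 or WT ESC at day 0 was taken, which gave 4 of the 8 arrays of the series, and all 19938 genes that the platform annotation gives under 1 symbol were tested. The cells were CGR8, a feeder-independent mouse ESC line labelled with the donor strain 129P2/OlaHsd and the background strain C57BL/6, kept with leukaemia inhibitory factor (LIF) and serum. The PML KD ESCs had received a lentivirus with a short hairpin RNA against Pml in the pLKO.1 vector and puromycin selection, as per the labels. The other 4 arrays held PML KD and WT embryoid bodies (EBs) grown without LIF to day 4, and are used here only as a second time point. The protocol also names an empty-vector virus, and the sources used here do not give whether the cells labelled WT carried it. They likewise do not give whether the knockdown line was 1 clone or a pool, or whether separate cultures stand behind the arrays of a group. The p-values therefore cover only array-to-array spread, which may be technical.

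PML is a RING-finger protein of the TRIM family that builds PML nuclear bodies, the small round nuclear structures to which proteins such as DAXX and SP100 are recruited through SUMO conjugates. Mouse ESCs in LIF and serum depend on the LIF receptor, whose subunits LIFR and gp130 (Il6st) activate JAK kinases and the transcription factor STAT3. STAT3 in turn drives Socs3, a feedback inhibitor of the JAK kinases, and pluripotency factors such as Klf4. Without LIF, such cells leave self-renewal.

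Both day 0 cultures had the RNA profile of ESCs. All 7 ESC markers looked at (Pou5f1, Nanog, Sox2, Zfp42, Dppa5a, Utf1 and Tdgf1) lay between 11.69 and 14.46 log2 signal units on the day 0 arrays, against a median gene at 7.84 and 7.81 on the PML KD arrays and 7.76 and 7.75 on the WT arrays. Differences below are log2 array signal in PML KD minus WT, given ± the SE from limma, and a gene passed when its limma p-value, adjusted by Benjamini-Hochberg over every gene tested, was under 0.05. By this rule 10432 genes passed, which is 52.3% of those tested, 5477 of them higher (27.5%) and 4955 lower (24.9%) in PML KD. With a difference of at least 2-fold as well, 229 genes were higher (1.15%) and 693 lower (3.48%). The median of all genes was 0.09, and the deposited values ran lower in PML KD among bright genes, with a median of -0.25 in the brightest of 10 groups of equal size against 0.23 in the fourth group from the dim end. Quantile normalization, which gives each array the same spread of values, moved the all-gene median to -0.06 and the share of higher genes among those that passed to 38.6%, from 52.5% as deposited. Shifting each array to a common median moved these to -0.14 and 21.5%. On that scale 2032 of the 19938 genes were higher and 7414 lower. Counts of gene groups after such a shift are to be read against these. The 25th percentile of genes, under which a gene is called dim, was 6.66 and 6.57 on the PML KD arrays and 6.45 and 6.42 on the WT arrays. On the quantile scale 43.9% of genes passed. Counts of gene groups after quantile normalization are given in brackets or beside the deposited ones, to be read against 16.9% of all genes higher and 27.0% lower on that scale.

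The PML KD ESC arrays also stood apart in ways that concern the whole culture. The Y-linked transcripts Eif2s3y and Uty were near the dim end of both PML KD day 0 arrays and bright on the WT day 0 arrays and on all 4 day 4 arrays, PML KD EBs included. Genes of chromosomes 8 and 14 were on balance higher on both PML KD day 0 arrays, and not at day 4. Values for both follow near the end. Both PML KD day 0 arrays share these features, so a difference between the groups at day 0 that comes with the hairpin and one that comes with the culture cannot be told apart here.

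Pml itself was 11.10 and 11.07 in PML KD ESCs, against 11.70 and 11.68 in WT ESCs. Both PML KD values lay below both WT values, at a difference of -0.60 ± 0.08 (limma adjusted p = 0.000317). Such a separation of the arrays, in either direction, was seen in 76.7% of all genes. The PML KD mean was 0.659 times the WT mean on the linear scale as deposited, which leaves most of the Pml signal in place. The size of the Pml difference depended on the scale. It was -0.46 after quantile normalization (limma adjusted p = 0.00192) and -0.83 after a shift to a common median. In a second deposited table of gene values it was -0.40 (limma adjusted p = 0.0114). In the day 4 EBs, which share no array with the day 0 groups, Pml was 10.54 and 10.69 in PML KD and 10.88 and 10.84 in WT, a difference of -0.24 (limma adjusted p = 0.0451). Among 35 measured genes of nuclear body proteins and the SUMO pathway that feeds them, 4 were higher and 19 lower, Pml included, with a median of -0.30 (5 higher and 17 lower after quantile normalization). Daxx, a histone chaperone held in the bodies, was 9.17 and 9.37 in PML KD ESCs, against 9.97 and 10.06 in WT ESCs. It fell by 0.75. Hipk2, a kinase of the bodies, differed by -0.68 ± 0.09, and Sqstm1, the autophagy receptor p62, by -0.87 ± 0.07. Sae1, part of the SUMO-activating enzyme, was 10.87 and 10.80 in PML KD ESCs, against 11.66 and 11.68 in WT ESCs, a difference of -0.84 ± 0.07. Sp100, a founding member of the bodies, lay below the 25th percentile at 5.98 and 5.93 in PML KD ESCs, against 6.05 and 5.98 in WT ESCs, did not pass as deposited, and was lower after quantile normalization (-0.31, limma adjusted p = 0.0117).

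In the LIF pathway, most measured genes were lower in PML KD ESCs, whereas both receptor subunits were higher. Lifr was 11.72 and 11.72 in PML KD ESCs, against 11.22 and 11.22 in WT ESCs, and Il6st was 11.73 and 11.85 in PML KD ESCs, against 11.29 and 11.27 in WT ESCs. Both rose, at 0.50 ± 0.07 (limma adjusted p = 0.000502) and 0.51 ± 0.08 (limma adjusted p = 0.000794), and after a shift to a common median they kept differences of 0.27 and 0.28. Jak2 was 7.02 and 7.35 in PML KD ESCs, against 8.05 and 8.13 in WT ESCs, and it fell by 0.90. Jak1 fell by 0.79 as deposited but did not pass in the second deposited table, the authors' workbook of gene values (-0.19, limma adjusted p = 0.226), and the kinase gene Tyk2 did not pass (-0.10 ± 0.08). Stat3 was 9.98 and 10.05 in PML KD ESCs, against 10.20 and 10.30 in WT ESCs, a difference of -0.23 ± 0.08 that passed as deposited and not after quantile normalization (-0.05, limma adjusted p = 0.623).

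Socs3, the feedback inhibitor, was 8.45 and 8.20 in PML KD ESCs, against 10.70 and 10.73 in WT ESCs. The WT values were 5.23 times the PML KD values on the linear scale (difference -2.39 ± 0.12, limma adjusted p = 7.28e-06). In EBs without LIF it was 8.12 and 8.32 in PML KD and 8.22 and 7.94 in WT, so the PML KD ESC values, from cells kept in LIF, overlapped those of EBs. Pim1, a STAT target kinase, was 10.06 and 10.16 in PML KD ESCs, against 11.05 and 11.13 in WT ESCs. Bcl3, an atypical I-kappa-B protein, differed by -1.05 ± 0.13, and the repressor Bcl6 by -1.37 ± 0.15. Myc, a STAT3 target in ESCs, was 7.92 and 8.21 in PML KD ESCs, against 10.14 and 10.05 in WT ESCs, and it fell by 2.03. In EBs Myc was 9.19 and 9.25 in PML KD and 8.05 and 8.22 in WT, the opposite direction (limma adjusted p = 0.000311). Over the list, 5 of 39 measured genes were higher and 25 lower in PML KD, with a median of -0.48, and quantile normalization gave 5 and 26.

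**Figure D1:**
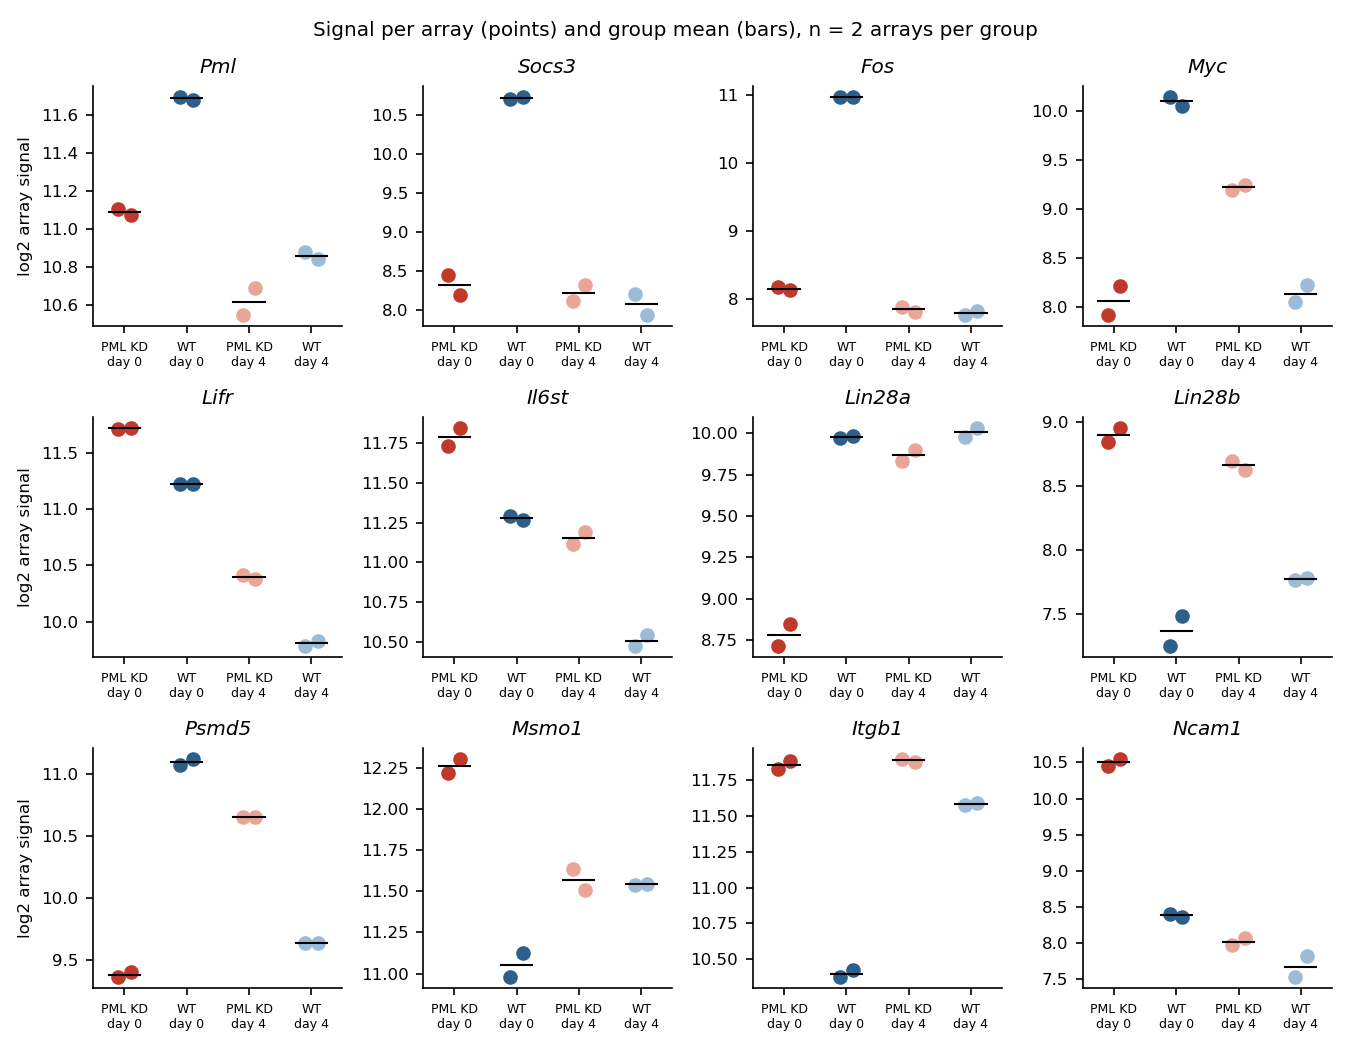
Log2 array signal (vertical axis) of 12 genes on each of the 8 arrays, as points, with group means as bars, for PML KD and WT ESCs at day 0 and PML KD and WT EBs at day 4. Socs3 and Fos were low on both PML KD day 0 arrays and on all day 4 arrays and high on both WT day 0 arrays, while Lifr and Il6st were higher in PML KD at both days.

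Immediate early genes, which growth factors and stress switch on within minutes through ERK, p38 and serum response factor, were mostly lower. Of 50 measured, 1 was higher and 33 lower, with a median of -0.56, and after quantile normalization 0 were higher and 34 lower. This list shares members with the LIF list, Fos and Egr1 among them, so their counts are not separate results. Fos, a subunit of AP-1, was 8.17 and 8.13 in PML KD ESCs, against 10.97 and 10.98 in WT ESCs. The WT values were 7.09 times the PML KD values (difference -2.83 ± 0.07, limma adjusted p = 6.63e-07). The AP-1 partners Fosb and Junb were also lower, by -1.32 ± 0.10 and -1.25 ± 0.08. Cited2, a CBP and p300 binding protein known for a role in ESC maintenance, was 10.21 and 10.32 in PML KD ESCs, against 12.41 and 12.48 in WT ESCs. Zfp36, which binds AU-rich elements and speeds mRNA decay, was 7.34 and 7.23 in PML KD ESCs, against 9.21 and 9.33 in WT ESCs, a difference of -1.98 ± 0.09. Dusp1, a phosphatase that shuts off MAP kinases, differed by -1.20 ± 0.08, Ier3 by -1.26 ± 0.09 and Klf6 by -1.18 ± 0.08. Egr1 was 9.89 and 10.20 in PML KD ESCs, against 11.67 and 11.64 in WT ESCs, and it fell by 1.61, a difference that was smaller in the authors' workbook (-1.01). Klf2 did not pass at 11.84 and 11.97 in PML KD ESCs, against 11.99 and 12.01 in WT ESCs. In EBs Fos was 7.87 and 7.81 in PML KD and 7.75 and 7.82 in WT.

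Promoters of Socs3 and Zfp36 are shown because both genes fell about 4-fold or more and hold the STAT motif TTCNNNGAA, searched on both strands from 250 bases before to 50 bases after the start. The sequences are those of RefSeq on GRCm38.p6, which held a promoter for 15614 of the genes tested. The Socs3 window is chr11:117969317-117969616 on the minus strand, with the match in capitals -154 bases from the start. The Zfp36 window is chr7:28379179-28379478 on the minus strand, with a CArG box, the serum response factor element, at -58 and the STAT motif at -17, both in capitals.
Socs3: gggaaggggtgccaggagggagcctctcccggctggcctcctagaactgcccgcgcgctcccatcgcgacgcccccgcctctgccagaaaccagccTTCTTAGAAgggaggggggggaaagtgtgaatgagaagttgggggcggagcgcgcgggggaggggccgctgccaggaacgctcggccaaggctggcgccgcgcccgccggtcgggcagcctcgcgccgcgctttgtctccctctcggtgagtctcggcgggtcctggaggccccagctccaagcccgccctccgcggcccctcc
Zfp36: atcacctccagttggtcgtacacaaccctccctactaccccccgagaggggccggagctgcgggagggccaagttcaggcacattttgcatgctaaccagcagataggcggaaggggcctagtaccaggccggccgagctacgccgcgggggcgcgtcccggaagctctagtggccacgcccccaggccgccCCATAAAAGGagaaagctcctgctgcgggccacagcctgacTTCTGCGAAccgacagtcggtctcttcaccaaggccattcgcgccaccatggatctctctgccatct
The STAT motif was in 7.83% of all promoters, in 8.57% of those of genes at least 2-fold lower in PML KD and in 5.73% of those at least 2-fold higher. On the LIF list it was in 4 of 31 promoters. The CArG box, searched on both strands and able to hold the letters TATAAA, was in 1.42% of all promoters, 1.92% of the lower and 0.637% of the higher, and in 3 of 39 immediate early promoters. The TATA box TATAAA, also searched on both strands, was in 12.1% of all promoters, 9.09% of the lower and 15.3% of the higher. It was in 11 of 39 immediate early promoters. Without dim genes it was in 7.81% of all promoters, 8.78% of the lower and 15.6% of the higher. The share of the lower genes was then above that of all genes. These shares of matches are a description of the letters in the windows.

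Pluripotency factors remained bright, and several were modestly lower. Pou5f1 was 12.65 and 12.80 in PML KD ESCs, against 13.35 and 13.36 in WT ESCs, a difference of -0.63 ± 0.08 (limma adjusted p = 0.000285). Sox2, its partner on DNA, was 12.12 and 12.18 in PML KD ESCs, against 12.88 and 12.76 in WT ESCs, a difference of -0.67 ± 0.08. Nanog fell by 0.48 as deposited, and Klf4 fell by 0.73. In the authors' workbook the Nanog difference was -0.25 and that of Klf4 was 0.07 (limma adjusted p = 0.703), so the fall of Klf4 rested on the table used. Tbx3, a LIF-responsive factor, was 11.60 and 11.66 in PML KD ESCs, against 12.38 and 12.48 in WT ESCs. Nr0b1 (Dax1), an OCT4-binding nuclear receptor, was 11.50 and 11.63 in PML KD ESCs, against 12.78 and 12.81 in WT ESCs, and it fell by 1.24, and Klf5 differed by -0.92 ± 0.08. Esrrb (-0.19 ± 0.07) and Zfp42 (0.07 ± 0.07), both naive markers, did not pass as deposited. On the list of core and naive factors 11 of 47 were higher and 23 lower, and after quantile normalization 16 and 17. Eras, a constitutively active Ras of ESCs, was 8.20 and 8.12 in PML KD ESCs, against 10.17 and 10.24 in WT ESCs. It fell by 2.04 (limma adjusted p = 4.73e-06) and was higher in PML KD EBs than in WT EBs at day 4 (0.53, limma adjusted p = 0.00364).

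The Lin28 and D-type cyclin families split, with a member higher and a close relative lower. Genes that write or oxidize DNA methylation also differed in direction. Lin28a, which blocks let-7 maturation, was 8.71 and 8.85 in PML KD ESCs, against 9.97 and 9.98 in WT ESCs, and Lin28b, its paralog with the same function, was 8.84 and 8.95 in PML KD ESCs, against 7.25 and 7.49 in WT ESCs. The first fell by 1.20 and the second rose by 1.53, and the Lin28b rise was also present in EBs (0.89, limma adjusted p = 0.000374). Of the D-type cyclins, which drive entry to S phase with CDK4 and CDK6, Ccnd1 rose by 1.04 and Ccnd3 fell by 1.12. Tet1, a 5-methylcytosine oxidase, was 13.71 and 13.74 in PML KD ESCs, against 12.91 and 12.90 in WT ESCs. It rose by 0.82, whereas the de novo methyltransferase gene Dnmt3b and its cofactor Dnmt3l fell. Dnmt3b was 9.05 and 9.32 in PML KD ESCs, against 10.48 and 10.61 in WT ESCs, and Dnmt3l was 10.28 and 10.42 in PML KD ESCs, against 12.09 and 12.09 in WT ESCs. Their differences were -1.36 ± 0.10 and -1.74 ± 0.08.

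In TGF-beta family signalling, several Nodal pathway genes were higher and the Id genes, which BMP induces, lower. Lefty1, a secreted Nodal antagonist that Nodal signalling itself induces, was 10.59 and 10.68 in PML KD ESCs, against 9.05 and 9.09 in WT ESCs. Lefty2, its neighbour with the same role, was 10.37 and 10.68 in PML KD ESCs, against 9.18 and 9.34 in WT ESCs. They rose by 1.56 (limma adjusted p = 6.04e-06) and 1.27 (limma adjusted p = 4.63e-05). The Nodal coreceptor Tdgf1 (Cripto) differed by 0.85 ± 0.07, the ligand Nodal by 0.59 ± 0.07 (0.37 after a shift to a common median), the TGF-beta ligand Gdf3 by 0.79 ± 0.08 and the activin subunit Inhbb by 1.35 ± 0.16. On the Nodal list 15 of 37 were higher and 10 lower (16 and 10 after quantile normalization, 13 and 15 after a shift to a common median). Id2, an inhibitor of bHLH factors that BMP induces through SMADs, was 7.48 and 7.63 in PML KD ESCs, against 9.69 and 9.79 in WT ESCs. Id3 was 7.39 and 7.39 in PML KD ESCs, against 8.51 and 8.60 in WT ESCs. Both fell, at -2.19 ± 0.09 and -1.17 ± 0.08. Id1 differed by -0.93 ± 0.08, and by -0.46 in the authors' workbook. In EBs all 3 genes went the other way, at 0.56 for Id1, 0.77 for Id2 and 1.08 for Id3. The BMP and Id list as a whole did not lean one way, with 9 higher and 10 lower of 34 (4 and 10 after quantile normalization), and the BMP receptor Bmpr2 rose by 0.93.

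FGF signalling, which moves ESCs towards differentiation through ERK, had members in both directions. Fgf4, the autocrine ligand, rose by 0.54, and kept 0.32 after a shift to a common median. Fgfr1 was 11.24 and 11.22 in PML KD ESCs, against 10.13 and 10.16 in WT ESCs, a rise of 1.08, with a similar value in EBs (1.07). The feedback phosphatase Dusp6 was 9.34 and 9.49 in PML KD ESCs, against 10.68 and 10.76 in WT ESCs. It fell by 1.30, Spry2 differed by -0.93 ± 0.10 and the ERK-driven ETS factor Etv4 by -0.79 ± 0.10. Spred1, another inhibitor of ERK signalling, did not pass as deposited (0.21 ± 0.09) and was higher after quantile normalization (0.37, limma adjusted p = 0.00757). The list as a whole held 14 higher and 15 lower of 35 (14 and 12 after quantile normalization).

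In Wnt signalling, Porcn, the acyltransferase that all Wnt ligands need for secretion, was 10.44 and 10.60 in PML KD ESCs, against 8.37 and 8.47 in WT ESCs. It was the fourth largest rise among named genes (2.10 ± 0.09, limma adjusted p = 4.3e-06), and the WT EBs were above the PML KD EBs at day 4 (-0.58). Notum, a secreted Wnt deacylase, differed by 0.97 ± 0.10. Tcf7l1, the TCF that represses pluripotency genes in ESCs, was 10.27 and 10.25 in PML KD ESCs, against 11.38 and 11.34 in WT ESCs. Of 55 Wnt genes 21 were higher and 7 lower in PML KD, and 18 and 10 after quantile normalization. After a shift to a common median the counts were 11 and 14, on a scale where 2032 of all 19938 genes were higher and 7414 lower.

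Genes that make and degrade protein were mostly lower. Of 46 proteasome genes, 38 were lower in PML KD and 2 higher, with a median of -0.74, and quantile normalization left 38 lower and 2 higher. The median proteasome gene was 10.27 and 10.40 on the PML KD arrays and 11.07 and 11.09 on the WT arrays. Psmd5, a chaperone of the regulatory particle, was 9.36 and 9.40 in PML KD ESCs, against 11.08 and 11.12 in WT ESCs, and it fell by 1.72. Psma2, of the core ring, was 10.11 and 10.20 in PML KD ESCs, against 11.41 and 11.37 in WT ESCs, and Psmc4, an ATPase of the base, was 10.13 and 10.26 in PML KD ESCs, against 11.31 and 11.29 in WT ESCs. Psma2 and Psmc4 differed by -1.23 ± 0.09 and -1.10 ± 0.08. Psmb5, a catalytic subunit, was 9.89 and 9.93 in PML KD ESCs, against 9.75 and 9.67 in WT ESCs and did not pass, and the immunoproteasome subunit Psmb9 was higher as deposited (0.39 ± 0.09) and did not pass after quantile normalization (0.24, limma adjusted p = 0.0562).

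Mitochondrial ribosomal proteins were lower for 67 of 77 and higher for 0, with a median of -0.50 (63 lower and 2 higher after quantile normalization). Mrpl50 was 8.36 and 8.45 in PML KD ESCs, against 9.87 and 9.94 in WT ESCs. Mrps6 was 9.40 and 9.37 in PML KD ESCs, against 10.78 and 10.70 in WT ESCs. No array of the PML KD group reached a WT value for either gene, and 76.7% of all genes had arrays that separate in either direction. Respiratory chain and ATP synthase subunits were lower for 61 of 74 and higher for 5 (48 and 7 after quantile normalization), and Atp5h, of the ATP synthase stalk, was 11.04 and 11.04 in PML KD ESCs, against 12.19 and 12.14 in WT ESCs. Ribosome biogenesis factors were lower for 54 of 69 and higher for 3, with a median of -0.59 (46 and 5 after quantile normalization). Rrs1 and Brix1, assembly factors of the large subunit, differed by -1.46 ± 0.10 and -1.28 ± 0.09. The cytosolic ribosomal proteins were lower for 52 of 62 as deposited and for 33 after quantile normalization. Their genes share sequence with many pseudogenes, so single members are uncertain.

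**Figure D2:**
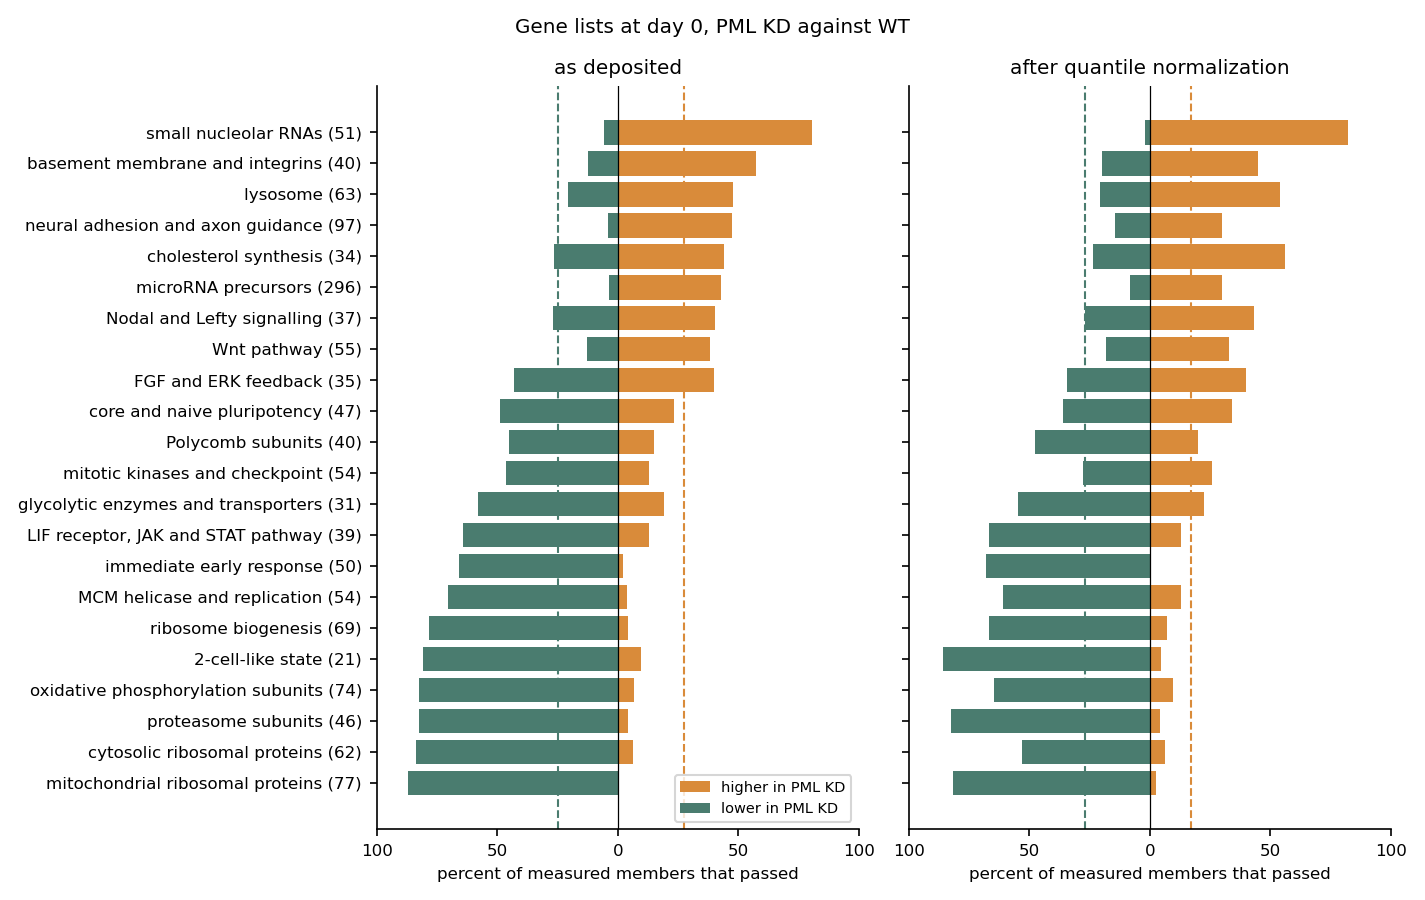
Percent of each list's measured members (number in brackets) that were higher (right) or lower (left) in PML KD ESCs at day 0 by the limma fit, for the deposited values and after quantile normalization. Dashed lines mark the share of all genes in the same direction, and proteasome, mitochondrial ribosome and immediate early genes lay far beyond the line on the lower side on both scales.

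Most replication genes were lower, and mitotic genes depended on the scale. Of 54 genes of the MCM helicase and replication fork, 38 were lower and 2 higher (33 and 7 after quantile normalization). Mcm4, a helicase subunit, was 10.64 and 10.72 in PML KD ESCs, against 11.45 and 11.44 in WT ESCs. Rfc4, of the clamp loader, differed by -0.99 ± 0.08, and Chaf1b, a chaperone that loads histones behind the fork, by -0.91 ± 0.08. Of 54 mitotic genes 25 were lower and 7 higher as deposited, against 15 and 14 after quantile normalization. Among p53 genes 11 of 43 were higher and 18 lower (11 and 18 after quantile normalization). Trp53 and Cdkn1a were not analysed here.

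In sugar metabolism most genes measured were lower. Pgk1, which makes ATP in lower glycolysis, was 10.52 and 10.47 in PML KD ESCs, against 12.28 and 12.30 in WT ESCs. It fell by 1.79 (limma adjusted p = 3.59e-06). Hk2, an inducible hexokinase, was 10.29 and 10.48 in PML KD ESCs, against 11.49 and 11.49 in WT ESCs, a difference of -1.11 ± 0.08, and Pgam1 differed by -1.06 ± 0.08. Pdha1, of the pyruvate dehydrogenase complex that feeds pyruvate to the mitochondrion, was 10.95 and 11.02 in PML KD ESCs, against 12.06 and 12.10 in WT ESCs. Of 31 genes on the list 18 were lower and 6 higher (17 and 7 after quantile normalization). The phosphofructokinase gene Pfkp did not pass (-0.17 ± 0.08). The glucose transporter Slc2a3 was 14.22 and 14.19 in PML KD ESCs, against 13.82 and 13.84 in WT ESCs (0.38 ± 0.07 as deposited, 0.49 after quantile normalization, 0.16 after a shift to a common median, where it did not pass).

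Several genes of sterol and unsaturated fatty acid synthesis were higher. Of 34 measured genes 15 were higher and 9 lower in PML KD as deposited, and 19 and 8 after quantile normalization. After a shift to a common median the counts were 13 and 13, with a median of -0.04. Msmo1, which removes the sterol C4 methyl groups, was 12.22 and 12.30 in PML KD ESCs, against 10.98 and 11.12 in WT ESCs. Ebp, a sterol isomerase, was 9.60 and 9.79 in PML KD ESCs, against 8.16 and 8.25 in WT ESCs, and Dhcr7, which makes cholesterol in the last step, was 10.75 and 10.77 in PML KD ESCs, against 9.44 and 9.52 in WT ESCs. Both PML KD arrays were above both WT arrays in each, a separation without overlap that 76.7% of all genes had in one direction or the other, and the differences were 1.21 ± 0.09, 1.49 ± 0.09 and 1.28 ± 0.09. Srebf2, the transcription factor that induces these enzymes, was 11.52 and 11.54 in PML KD ESCs, against 10.57 and 10.61 in WT ESCs, a rise of 0.94. The desaturases Scd2 and Fads1 rose by 1.15 and 1.04. The amino acid response was mixed. Atf4, its transcription factor, was 9.29 and 9.34 in PML KD ESCs, against 10.38 and 10.44 in WT ESCs, and it fell by 1.10. The transsulfuration enzymes Cth and Cbs, which make cysteine from homocysteine, fell, at -1.27 ± 0.08 and -1.34 ± 0.09. On that list 29 of 59 were lower and 20 higher (27 and 24 after quantile normalization).

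Many genes for the cell surface and its matrix were higher. Ncam1, an immunoglobulin-type adhesion molecule, was 10.45 and 10.55 in PML KD ESCs, against 8.41 and 8.36 in WT ESCs. It was the second largest rise among named genes (2.11 ± 0.10, limma adjusted p = 6.11e-06). Ntn1, the secreted guidance cue netrin, was 10.92 and 11.02 in PML KD ESCs, against 8.85 and 8.97 in WT ESCs, a difference of 2.06 ± 0.08. Itgb1, the beta chain shared by most matrix-binding integrins, was 11.83 and 11.88 in PML KD ESCs, against 10.37 and 10.42 in WT ESCs. Itgb1 lies on chromosome 8, and of its alpha partners on other chromosomes Itga9 rose by 1.50, Itga3 by 0.91 and Itgav by 0.76, while Itga6 did not pass (0.15 ± 0.08). The basement membrane proteoglycans Agrn and Hspg2 rose by 0.99 and 0.70. Of 40 genes of basement membrane and integrins, 23 were higher and 5 lower (18 and 8 after quantile normalization, 13 and 10 after a shift to a common median). Leaving out genes of chromosomes 8 and 14, a choice made after seeing the data, 21 of 36 were higher and 3 lower. The list of neural adhesion and axon guidance genes held 46 higher and 4 lower of 97 as deposited, and 29 and 14 after quantile normalization, when its median was 0.02. Its median member stood at 7.55 and 7.59 in PML KD and 7.36 and 7.37 in WT, below the median gene. Lysosomal genes were higher for 30 of 63 and lower for 13 (34 and 13 after quantile normalization, 15 and 16 after a shift to a common median). The cathepsin Ctsz was 11.28 and 11.31 in PML KD ESCs, against 10.33 and 10.25 in WT ESCs, the hexosaminidase chain Hexa differed by 0.92 ± 0.08 and the cholesterol carrier Npc2 by 0.83 ± 0.07. Mitf, a transcription factor of lysosomal genes, was lower (-0.85 ± 0.10).

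Genes were also grouped by the cellular compartment of their proteins in the authors' workbook, a grouping made after seeing the data. Of 2871 genes with the transmembrane class alone, 42.8% were higher and 8.99% lower, with a median of 0.24 (after quantile normalization 28.7% and 12.2%). The 1255 extracellular genes had 39.5% higher and 8.45% lower, and after quantile normalization 18.6% and 14.2%, the share higher then being near that of all genes, with a median of 0.01. The 2726 nuclear genes had 16.4% higher and 42.0% lower, with a median of -0.14 (after quantile normalization 13.4% and 41.1%). The difference between classes was largest among bright genes. In the brightest group the medians were 0.34 for transmembrane, 0.38 for extracellular and -0.36 for nuclear genes, and after quantile normalization 0.52, 0.55 and -0.19. In EBs the class medians were 0.01 for transmembrane, -0.07 for extracellular and 0.02 for nuclear genes, and in the brightest group 0.32, 0.09 and 0.13. Of the 2871 transmembrane genes 700 were higher and 280 lower in PML KD EBs. The nuclear genes had 571 higher and 315 lower of 2726, and the extracellular genes 156 and 159 of 1255. Over all genes 16.8% were higher and 11.8% lower at day 4.

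**Figure D3:**
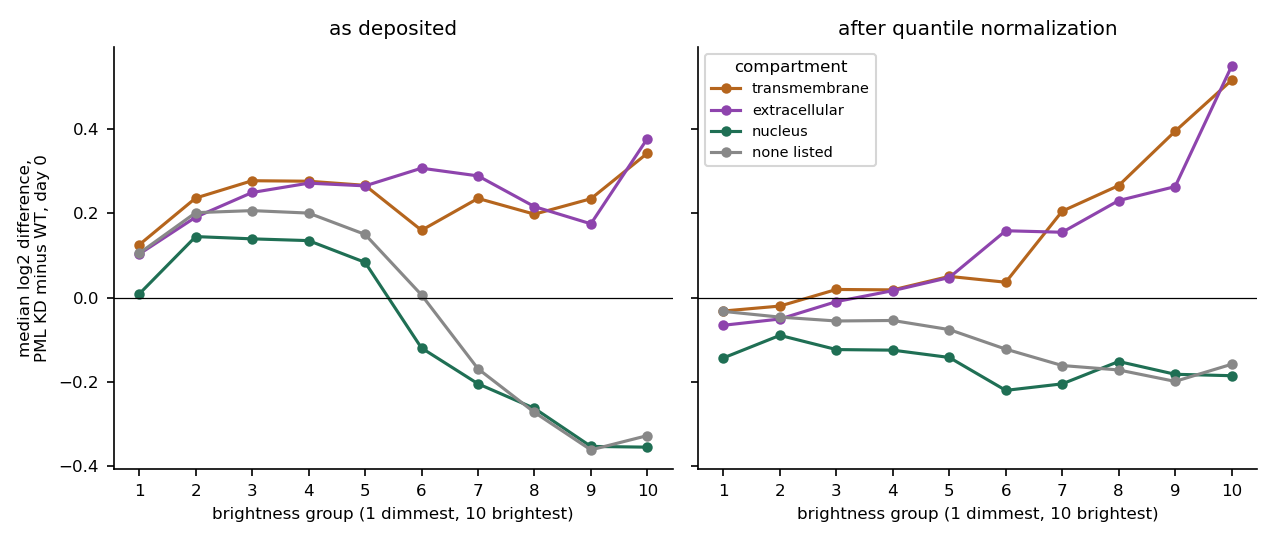
Median log2 difference of PML KD minus WT at day 0 (vertical axis) for genes in 10 groups of rising mean signal (horizontal axis), by cellular compartment, as deposited and after quantile normalization. Transmembrane and extracellular genes stayed above 0 in each group as deposited, while nuclear genes and those with no class fell below 0 among the brighter groups.

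Small nucleolar RNAs (snoRNAs), which guide the chemical modification of ribosomal RNA and are released mostly from introns, were mostly higher. Of 51 measured, 41 were higher and 3 lower, with a median of 0.61 (42 and 1 after quantile normalization). The median snoRNA was 11.54 and 11.64 on the PML KD day 0 arrays and 10.73 and 10.74 on the WT day 0 arrays. In EBs the order turned, with 11.10 and 11.13 in PML KD and 12.13 and 12.01 in WT. Snord14e, of the C/D box class that guides 2′-O-methylation, was 13.49 and 13.47 in PML KD ESCs, against 11.97 and 12.02 in WT ESCs. Snora23, of the H/ACA class that guides pseudouridylation, was 12.41 and 12.42 in PML KD ESCs, against 11.19 and 11.13 in WT ESCs. Each rose at day 0, by 1.48 and 1.25, and fell in PML KD EBs, by -1.03 and -0.91 in signed values. Nearly all snoRNA genes lie inside introns of other genes, and the sources used here do not give whether a probe set reads the snoRNA or its host transcript. Firre and Malat1, long RNAs that stay in the nucleus and were chosen after their values were seen, and Kansl1, a chromatin gene among the largest rises, were likewise higher in PML KD at day 0 and lower in PML KD at day 4. Firre was 11.99 and 12.00 in PML KD ESCs, against 10.15 and 10.34 in WT ESCs, with 10.66 and 10.74 in PML KD EBs and 11.50 and 11.54 in WT EBs. Malat1 was 14.05 and 14.04 in PML KD ESCs, against 12.98 and 12.97 in WT ESCs, with 13.52 and 13.50 in PML KD EBs and 14.22 and 14.16 in WT EBs. The Kansl1 rise of 1.92 became 1.04 when its probe sets were averaged. Rny1, a small RNA that binds the Ro protein, went the other way at 9.18 and 9.30 in PML KD ESCs, against 11.70 and 11.69 in WT ESCs, a difference of -2.45 ± 0.07, while the related Rny3 was not past the threshold (0.08 ± 0.07).

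**Figure D4:**
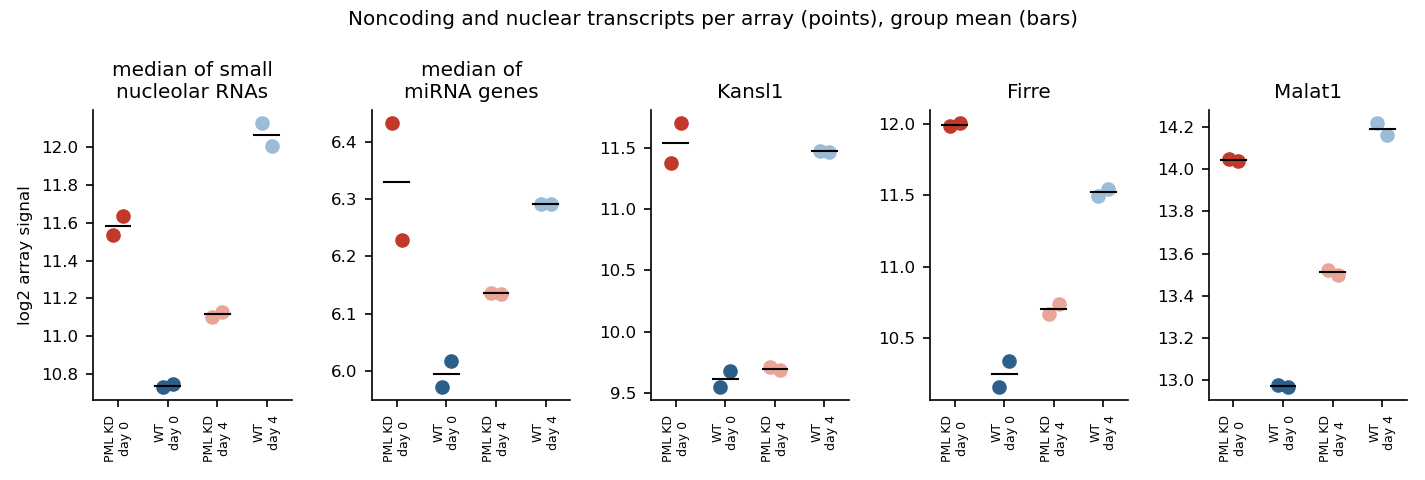
Log2 array signal (vertical axis) per array, as points, with group means as bars, of the median snoRNA, the median miRNA gene, Kansl1, Firre and Malat1 in the 4 groups. In each panel PML KD lay above WT at day 0 and below it at day 4.

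Of the microRNA (miRNA) genes that passed, most were higher, at low signal. Of 296 measured, 127 were higher and 11 lower (89 and 24 after quantile normalization, 78 and 48 after a shift to a common median), 158 did not pass, and in EBs 8 were higher and 66 lower. Mature sequences from RefSeq on GRCm38.p6 were found for 270 of the 296, and those of the members named here are shown because their seeds, bases 2 to 8 in capitals, show which of them are related. The probe sets are named for the miRNA genes, and the sources used here do not give whether they read the precursor or the mature form.
miR-15a-5p: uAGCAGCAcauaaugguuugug
miR-103-3p: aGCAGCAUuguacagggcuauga
miR-34a-5p: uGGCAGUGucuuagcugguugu
miR-17-5p: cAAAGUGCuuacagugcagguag
miR-302b-3p: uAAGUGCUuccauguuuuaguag
miR-302d-3p: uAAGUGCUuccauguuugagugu
miR-302c-3p: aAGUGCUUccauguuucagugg
Mir15a, with mature miR-15a-5p at chr14:61632075-61632096, was 9.27 and 9.20 in PML KD ESCs, against 7.07 and 6.93 in WT ESCs. It was the largest rise among named genes (2.24 ± 0.08, limma adjusted p = 3.28e-06). The seeds of miR-15a and miR-103 share the letters GCAGCA, 1 base apart, and Mir103-2 also rose (1.25 ± 0.15). Mir34a, a p53-induced miRNA, was 7.79 and 7.92 in PML KD ESCs, against 6.01 and 6.37 in WT ESCs, a rise of 1.66. Mir17, of the polycistronic miR-17 cluster and with mature miR-17-5p at chr14:115043684-115043706, rose by 1.08, and like Mir15a it lies on chromosome 14. The miR-302 genes, with mature miR-302b-3p at chr3:127545275-127545297, belong to the seed group typical of pluripotent and primed cells. MiR-302b and miR-302d have the same seed, and the seeds of miR-302c and miR-17 hold its letters AGUGC in a shifted frame. The Mir302 genes were lower, Mir302c by -1.17 ± 0.15 and Mir302d by -0.81 ± 0.20, Mir302d by -0.48 without PML KD replicate 2. Mir302a, Mir302b and Mir302c were below the 25th percentile on all 4 day 0 arrays, so their day 0 values are near the limit of the array. In EBs Mir302c was 7.47 and 7.07 in PML KD and 6.40 and 6.38 in WT, with PML KD higher (limma adjusted p = 0.00355).

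Genes that mark the 2-cell-like state, into which single ESCs pass for a time and which resembles the cleaving embryo, were mostly lower. Of 21 measured, 17 were lower and 2 higher, with a median of -0.52 (18 and 1 after quantile normalization). Tdpoz3 was 5.24 and 6.09 in PML KD ESCs, against 8.07 and 8.08 in WT ESCs. Pramel6 was 6.03 and 6.09 in PML KD ESCs, against 8.07 and 7.73 in WT ESCs. Both were below the 25th percentile on the PML KD arrays, which bounds how far they can fall, and both have near-identical copies that a probe set may read. In bulk RNA such as this, fewer cells in a state and less RNA per cell cannot be told apart. Germ line genes were lower for 18 of 57 and higher for 9 (27 and 7 after quantile normalization). Dazl, an RNA-binding protein of germ cells, was 7.37 and 7.30 in PML KD ESCs, against 8.77 and 8.91 in WT ESCs, and Sohlh2, a germ cell bHLH factor, was 8.91 and 9.13 in PML KD ESCs, against 10.66 and 10.70 in WT ESCs. Polycomb genes were lower for 18 of 40 and higher for 6 (19 and 8 after quantile normalization), and Rnf2, the catalytic subunit of Polycomb complex PRC1, was 9.63 and 9.67 in PML KD ESCs, against 10.88 and 10.90 in WT ESCs. Among imprinted genes 16 of 46 were higher and 16 lower (11 and 17 after quantile normalization). Peg10, expressed from the paternal allele, was 10.72 and 10.76 in PML KD ESCs, against 12.29 and 12.34 in WT ESCs, and Sfmbt2, a Polycomb-related gene also expressed from the paternal allele, was 6.87 and 6.81 in PML KD ESCs, against 8.39 and 8.40 in WT ESCs. Phlda2, expressed from the maternal allele, rose by 1.28, and by 2.00 in EBs.

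Markers of differentiated cells lay at 9.16 or below on the day 0 arrays, under all the ESC markers. Primitive endoderm markers (Gata4, Gata6, Sox17, Sox7, Pdgfra and Dab2) had 0 higher and 2 lower of 6 (0 and 2 after quantile normalization), and the log2 of their summed signal was 10.26 and 10.18 on the PML KD arrays and 10.48 and 10.54 on the WT arrays. Gata4 did not pass (0.13 ± 0.08). Trophectoderm markers had 3 higher and 2 lower of 5 (0 and 2 after quantile normalization), with sums of 9.72 and 9.55 in PML KD and 10.10 and 10.06 in WT. Eomes was 7.66 and 7.60 in PML KD ESCs, against 9.12 and 9.16 in WT ESCs, and it fell by 1.51. Fibroblast markers (Col1a1, Col1a2, Col3a1, Dcn, Lum, Thy1 and Postn) had 5 higher and 0 lower of 7 as deposited and 2 and 0 after quantile normalization, at sums of 10.42 and 10.28 in PML KD and 9.95 and 9.94 in WT. Those markers ran from 4.44 to 8.63, and their part in the higher matrix and adhesion genes was not tested. Neural markers had 2 higher and 0 lower of 5 (1 and 0 after quantile normalization), with sums of 10.07 and 10.00 in PML KD and 9.86 and 9.81 in WT, and Pax6 was 7.91 and 7.90 in PML KD ESCs, against 7.03 and 7.01 in WT ESCs. Of the mesoderm markers 0 of 3 were higher and 0 lower (0 and 1 after quantile normalization), and of the blood markers 0 of 4 were higher and 1 lower (0 and 2 after quantile normalization).

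The Y-linked genes Eif2s3y and Uty ranked 1 and 3 among the 15 largest falls. Eif2s3y, a translation initiation subunit that mouse ESCs of male origin express, was 5.20 and 4.95 in PML KD ESCs, against 10.17 and 10.16 in WT ESCs. The difference was -5.09 ± 0.10 (limma adjusted p = 1.18e-07), with both PML KD arrays below the 25th percentile, and in EBs it was 9.99 and 9.86 in PML KD and 10.20 and 10.08 in WT. Uty was 5.40 and 5.77 in PML KD ESCs, against 9.18 and 9.38 in WT ESCs, and in EBs 9.14 and 9.03 in PML KD and 9.34 and 9.31 in WT. The PML KD EBs therefore held Eif2s3y and Uty transcripts that the PML KD ESC arrays showed only near the dim end. Other Y-linked genes were not as dim there. Uba1y was 7.26 and 7.33 in PML KD ESCs, against 8.89 and 8.62 in WT ESCs, and was lower. Sry was 8.51 and 8.14 in PML KD ESCs, against 8.03 and 7.82 in WT ESCs, and did not pass. Of 8 Y-linked genes 4 were lower and 0 higher, and Kdm5d was dim in both groups and did not pass (0.19 ± 0.10). Eif2s3x, the X-linked copy, was also lower, at 11.06 and 11.13 in PML KD ESCs, against 12.34 and 12.38 in WT ESCs. Xist, the RNA that coats an inactive X chromosome, was 7.37 and 7.60 in PML KD ESCs, against 6.12 and 6.38 in WT ESCs, both WT values being below the 25th percentile. It rose by 1.23 (limma adjusted p = 0.000391) and stayed below the median gene on the PML KD arrays.

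Chromosomes 8 and 14 stood above the rest. Over 9948 genes brighter than the median gene, 24.5% were higher and 43.3% lower in PML KD. The 550 of them on chromosome 8 had a median 0.26 above that of the other chromosomes, with 40.9% higher and 23.3% lower. The 329 on chromosome 14 had a median 0.18 above the others, with 35.3% higher and 32.2% lower. Against the WT day 0 mean, chromosome 8 stood at 0.26 and 0.24 on the PML KD day 0 arrays and chromosome 14 at 0.16 and 0.18. By the median difference of PML KD minus WT against the rest, all other chromosomes lay between -0.08 and 0.05. In EBs this same difference of PML KD minus WT was 0.01 for chromosome 8 and 0.00 for chromosome 14. Over 5 equal groups of its genes from one end to the other, chromosome 8 stood at 0.32, 0.35, 0.26, 0.23 and 0.19, so the higher level ran along its whole length, and chromosome 14 at -0.02, 0.17, 0.39, 0.28 and 0.15. Of the 229 genes at least 2-fold higher, 62 (27.1%) lie on these chromosomes, against 8.3% of all genes tested. Without them 4815 genes were higher and 4686 lower, 167 and 671 of them by at least 2-fold. The snoRNA list without them held 40 higher and 2 lower of 49, and the sterol list 13 and 8 of 31.

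**Figure D5:**
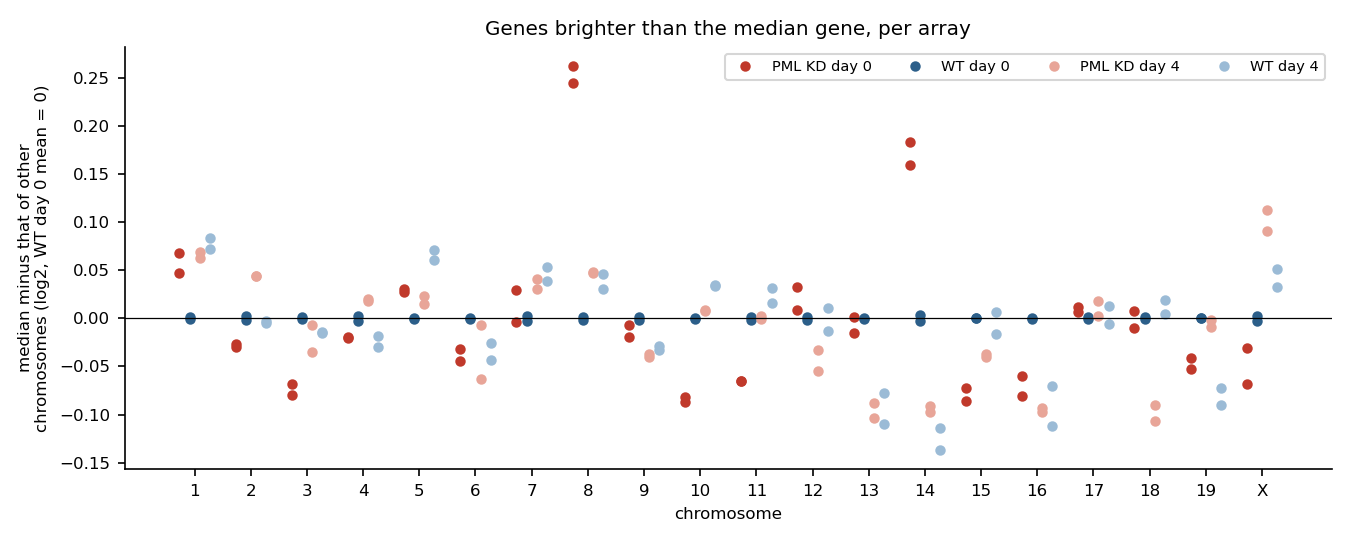
Median of genes brighter than the median gene on each chromosome minus that of the other chromosomes (vertical axis, log2 against the WT day 0 mean), 1 point per array, for the 4 groups. Both PML KD day 0 arrays stood apart on chromosomes 8 and 14 and lay near the other groups elsewhere.

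Other large rises included genes of secreted and membrane proteins. Trh, the precursor of thyrotropin-releasing hormone, was 13.35 and 13.34 in PML KD ESCs, against 11.34 and 11.37 in WT ESCs. Tenm3, a teneurin adhesion receptor, was 11.41 and 11.56 in PML KD ESCs, against 9.52 and 9.52 in WT ESCs, and it was higher in EBs as well (1.60, limma adjusted p = 1.84e-05). Tenm3 and Slc7a7, a cationic amino acid transporter subunit (1.86 ± 0.09), lie on chromosomes 8 and 14. Adam23, a membrane protein of the ADAM family that lacks protease activity, was 12.61 and 12.58 in PML KD ESCs, against 10.79 and 10.74 in WT ESCs, and Gabbr1, a subunit of the GABA-B receptor, was 11.87 and 11.88 in PML KD ESCs, against 10.04 and 10.02 in WT ESCs. The olfactory receptor genes Olfr983 and Olfr985 are also among the 15 largest rises, and such genes have close copies that a probe set may read. Spink10, of a family of serine protease inhibitors, ranked 2 among the 15 largest falls, at 4.91 and 5.19 in PML KD ESCs, against 10.05 and 10.21 in WT ESCs. Among the other falls, Tuba3a, an alpha tubulin of testis, was 8.66 and 8.52 in PML KD ESCs, against 11.42 and 11.44 in WT ESCs, and Ddc, which makes dopamine and serotonin, was 7.62 and 7.73 in PML KD ESCs, against 9.53 and 9.62 in WT ESCs. Khdc3, an oocyte and ESC protein of the subcortical maternal complex, was 7.97 and 7.98 in PML KD ESCs, against 10.42 and 10.36 in WT ESCs. Srgn, a proteoglycan of secretory granules, fell by 3.47 as deposited and differed by -0.73 in the authors' workbook. In interferon genes 12 of 50 were higher and 9 lower, which turned to 9 and 15 after quantile normalization, and Irf1, a transcription factor that interferon and STATs induce, was 7.90 and 8.15 in PML KD ESCs, against 9.55 and 9.49 in WT ESCs. Its difference of -1.50 ± 0.10 was -0.71 in the authors' workbook and -0.75 when its probe sets were averaged.

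Of the genes at least 2-fold apart at day 0, a minority passed in the same direction in the EBs. For the falls that share was near the share of all genes. At day 4, 28.6% of genes passed, with 3354 genes higher (16.8% of those tested) and 2351 lower (11.8%) in PML KD EBs. Of the 693 genes at least 2-fold lower at day 0, 77 (11.1%) were lower at day 4, against 11.8% of all genes. Of the same 693, 254 (36.7%) were higher at day 4, against 16.8% of all genes. These are 3.28% and 7.57% of the day 4 lists. Of the 229 at least 2-fold higher at day 0, 62 (27.1%) were higher and 66 (28.8%) lower, 1.85% and 2.81% of the day 4 lists. In several groups, most members that passed at day 4 had the opposite direction. The brightest of the 10 groups of all genes also turned, with a median of -0.25 at day 0 and 0.14 at day 4. List medians at day 4 were 0.26 for proteasome, 0.32 for respiratory chain and 0.34 for replication genes, and -0.48 for snoRNAs. The part of the brightness trend in these counts was not tested. Proteasome genes were higher for 22 and lower for 0 of 46 in PML KD EBs, and their effect at day 0 lay below that at day 4 by the limma contrast of the 2 effects for 39 and above it for 2. Over all genes 50.6% passed that contrast. For respiratory chain subunits 42 were higher and 2 lower in EBs, and for replication genes 33 and 1. The snoRNAs were higher for 1 and lower for 36, and the contrast passed for 43, all with the day 0 effect above that at day 4. Genes with like values at both days included Lifr (0.50 at day 0 and 0.59 at day 4), Il6st (0.51 and 0.65), Lefty2 (1.27 and 1.29) and Fgfr1 (1.08 and 1.07).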

How the data were processed

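RNA of 8 mouse samples in 4 groups was measured on 1-colour Affymetrix arrays. The main values were the linear intensity values the authors deposited in the series table, 35556 probe sets per array, and the sources used here do not give how they were normalized. A second deposited table, the authors' workbook, held log2 values per gene and the compartment classes, and Transcriptome Analysis Console is named in the submitters' processing notes. Its 4 columns of group means were not used. Of the probe sets, 21789 carried 1 gene symbol, 1621 several and 12146 none in the annotation used here. For the 999 genes with more than 1 probe set, the brightest on average was taken. No detection calls were used, and the number of arrays limits the precision.

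Intensities were taken to log2, and limma (version 3.58.1, R 4.3.3) was fitted by lmFit and eBayes on all 8 arrays with 4 group means, 4 residual degrees of freedom and no covariate. Benjamini-Hochberg adjustment ran over 19938 genes with a threshold of 0.05. The fit was tested on simulated data. Alternatives were quantile normalization, a common median, the workbook's values, a filter on genes with a mean under the 25th percentile, averaged probe sets, day 0 arrays alone, a variance trend with intensity, a replicate block and leaving out each day 0 array. Same-numbered arrays did not deviate together (correlations of deviations between -0.0821 and 0.0852 over 6 pairs of groups), so the numbers were not taken as pairs. The 45 gene lists and the genes always named were chosen with earlier results of these data known. Some lists share members, so their 2264 measured entries stand for 2076 genes. Genes named were Pml, the 15 largest rises and falls that passed on both scales with separate arrays, the largest members of each list, fixed pluripotency, lineage and Y-linked genes, and paralog pairs; the text gives a selection. Compartment classes and the counts without chromosomes 8 and 14 were added after seeing the data.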

Additional observations from a re-analysis of the deposited data

Results flagged for a closer look

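The contrast of the PML KD effect at day 0 minus that at day 4 was looked up for 11 genes. By limma, after adjustment over all genes, 10 passed it. These genes were chosen with earlier results of these data known, so their count is not a test. Over all genes 50.6% passed the contrast. It was passed by 93.4% of genes at least 2-fold higher at day 0 and 99.7% of those at least 2-fold lower. Those genes were chosen by their day 0 difference, which the contrast contains, so these shares were largely set in advance and are not a test. Pml differed by -0.36, with a larger deficit in ESCs than in EBs. The falls of Eif2s3y (-4.88), Uty (-3.45), Fos (-2.88), Socs3 (-2.53) and Id2 (-2.96) were seen at day 0, with little difference at day 4 except that Id2 was higher in PML KD EBs. Eras differed by -2.57 and was lower in PML KD ESCs and higher in PML KD EBs. The rises of Porcn (2.68), Lefty1 (1.96) and Ncam1 (1.77) at day 0 were above the day 4 effects. Kdm5d did not pass, and Ddx3y was not analysed here.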

How the results depend on the processing

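Across the 12 alternatives Pml stayed lower in PML KD and past the threshold, and of 132 genes described that passed, 127 kept direction and call in each alternative that gave a value for them; 139 of the 144 genes described had one in the workbook and 139 after the dim filter. Higher genes numbered 3379 after quantile normalization and 2032 after a shift to a common median. That shift gave 1550 genes at least 2-fold apart, 98 higher and 1452 lower, and 779 in the opposite direction at day 4 (320 as deposited). The workbook's values gave 502 higher at least 2-fold. The median of the brightest group was -0.0785 after quantile normalization, -0.47 after the median shift and -0.0771 in the workbook. Chromosome 8 stood 0.299 above the others in the workbook and 0.239 to 0.275 with 1 array left out, and chromosome 14 stood 0.199 and, with 1 array left out, 0.159 to 0.189. Without dim genes the STAT motif was in 6.71% and TATAAA in 7.81% of all promoters. Values turned sign for Klf4 (0.0689), Klf2 (0.45), Esrrb (0.0631), Sp100 (0.40), Tyk2 (0.0457) and Pfkp (0.0466) in the workbook, for Klf2 (0.0847) and Kdm5d (-0.0444) after quantile normalization, and for Gata4 (-0.0935), Kdm5d (-0.0371), Psmb5 (-0.0285), Rny3 (-0.15), Zfp42 (-0.15), Spred1 (-0.0186) and Itga6 (-0.0778) after the median shift, and of these Klf4 had passed as deposited. The cause was not tested. With the replicate block 10347 genes passed, 5445 higher and 4902 lower, and no gene described changed its call. No detection calls were used, so dim genes give no firm bound.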

Other observations

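Gene lists not described above are given by their counts, with those after quantile normalization in brackets, higher before lower. HIF target genes were higher for 8 and lower for 25 of 52 (10 and 23), and apoptosis regulators for 5 and 11 of 33 (6 and 12). MHC class I genes were higher for 11 and lower for 3 of 23, and after quantile normalization for 7 and 6. G1 cyclins and CDK regulators were higher for 6 and lower for 15 of 39 (7 and 13). Clustered histones, which the array reads through near-identical copies, had 1 higher and 13 lower of 32 (2 and 12). DNA methylation writers and TET enzymes had 4 higher and 9 lower of 27 (5 and 9). Of X-linked dosage genes 4 of 16 were higher and 7 lower (5 and 6).

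Endoderm genes were higher for 9 and lower for 16 of 49 (4 and 20), trophectoderm and placenta genes for 10 and 9 of 34 (4 and 14), and streak and mesoderm genes for 15 and 6 of 48 (9 and 9). Early neural genes were higher for 11 and lower for 6 of 44, and after quantile normalization for 4 and 10. Formative and primed epiblast genes were higher for 13 and lower for 15 of 37 (11 and 18). The wider fibroblast list held 11 higher and 0 lower of 27 (5 and 0), the epithelial-mesenchymal list 13 and 15 of 50 (10 and 18), and the list of keratins and junctions 19 and 12 of 49 (15 and 15).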
